A study of Mus musculus with 29 samples.

Results

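A pulse of transforming growth factor beta (TGFβ) was given to NMM cells, a mouse melanoma line labelled NRAS mutant, and mRNA was sequenced 24 h after the pulse had been washed away. The 4 libraries of this sequence received TGFβ at 10 ng/ml for 2, 6, 12 or 24 h, were washed 5 times with PBS and then kept in medium for 24 h. Their controls were 4 libraries that had medium for the same 2, 6, 12 or 24 h, the same washes and again 24 h of medium. These 8 libraries, chosen by their labels and paired by the duration of the first stimulation, were part of 29 libraries in a series on how cytokines of CD8+ T cells act on tumour cells over time. Beside them stood 4 libraries each of medium then TGFβ for 24 h, medium then IFNγ (interferon gamma, 100 ng/ml) for 24 h, TGFβ then IFNγ, and IFNγ then medium, again with 1 library per duration of the first stimulation. The remaining 5 libraries were 4 of IFNγ then TGFβ and 1 of medium then both cytokines, and they entered the model fit with all others. All groups were the same line in the same serum-containing medium, so the results describe 1 cell line. The labels name no separate cultures for a duration, and the 4 durations therefore stood as replicates. The p-values measure the spread between these libraries, which may be technical in part.

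TGFβ binds a pair of receptor kinases that phosphorylate SMAD2 and SMAD3, which enter the nucleus with SMAD4 and act on target genes together with other factors such as AP-1. SMAD7 and other induced proteins feed back on the receptor, and the ligand itself is secreted in a latent form that is held in the matrix. In tumours TGFβ is known for matrix remodelling, cell motility and for damping immune recognition. Interferons act through JAK kinases and STAT factors, and tumour cells can make low amounts of type I interferon themselves, which keeps antiviral genes and antigen presentation at a basal level.

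Totals of the 8 libraries lay between 17179530 and 21075151 counts. Levels are in CPM, the counts of a gene relative to the scaled library total, and changes are log2 fold changes of pulse over medium from edgeR with their standard error (SE). Calls were made where the adjusted p was below 0.05, and "rose" and "fell" are used for called genes. The medium library of 6 h stood apart from the other medium libraries, with a standard deviation of log2 differences of 0.596 against 0.320 to 0.361 for the other three. Results that rest on it are given with and without it. Mitochondrially encoded transcripts took 0.841% to 1.24% of counts in the medium libraries and 0.927% to 1.23% in the pulse libraries. Of 15 melanocyte markers, 4 were tested. Mitf, the lineage's master factor, lay between 10.3 and 15.3 CPM and Pax3, another of its factors, between 49.6 and 75.8 CPM. The lineage genes Sox10 and Kit, however, were at 0 in all 8 libraries. The pigment genes Tyr, Tyrp1, Dct and Mlana were not found by name among the 28229 genes with counts, and Pmel did not exceed 0.444 CPM. Among 18 leukocyte markers only Cd14 and Cd68 passed the filter on low counts. The summed level of that list was 52.8 to 82.2 CPM in medium and 20.6 to 56.5 CPM after the pulse, and Ptprc, the leukocyte common antigen, did not exceed 0.0578 CPM. In bulk RNA fewer cells of a type and less RNA per cell cannot be told apart.

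After the pulse 2163 of 14935 genes tested were called higher (14.5%) and 2162 lower (14.5%). Large changes were mostly decreases, with 196 genes higher and 636 lower by at least 1 on the log2 scale. Of the 4325 called genes, 3888 had the same sign at all 4 durations. Without the 6 h medium library 2007 genes were higher (13.4%) and 1977 lower (13.2%), and 3411 of the called genes kept their call and direction. The count rests on a model of all 29 libraries with the duration as a factor. It was 2615 without that factor, 1394 in a fit of the 8 libraries alone with it and 689 in a fit of the 8 libraries without it, and 2690 without all libraries of 12 h. In the plot of calls by gene list, the lists at the bottom hold interferon-stimulated genes and the list at the top holds actin and contractile genes. Counts of called members in the lists below stand against the share of 14.5% of all genes in each direction. A list near that share does not stand out from all genes.

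**Figure D1:**
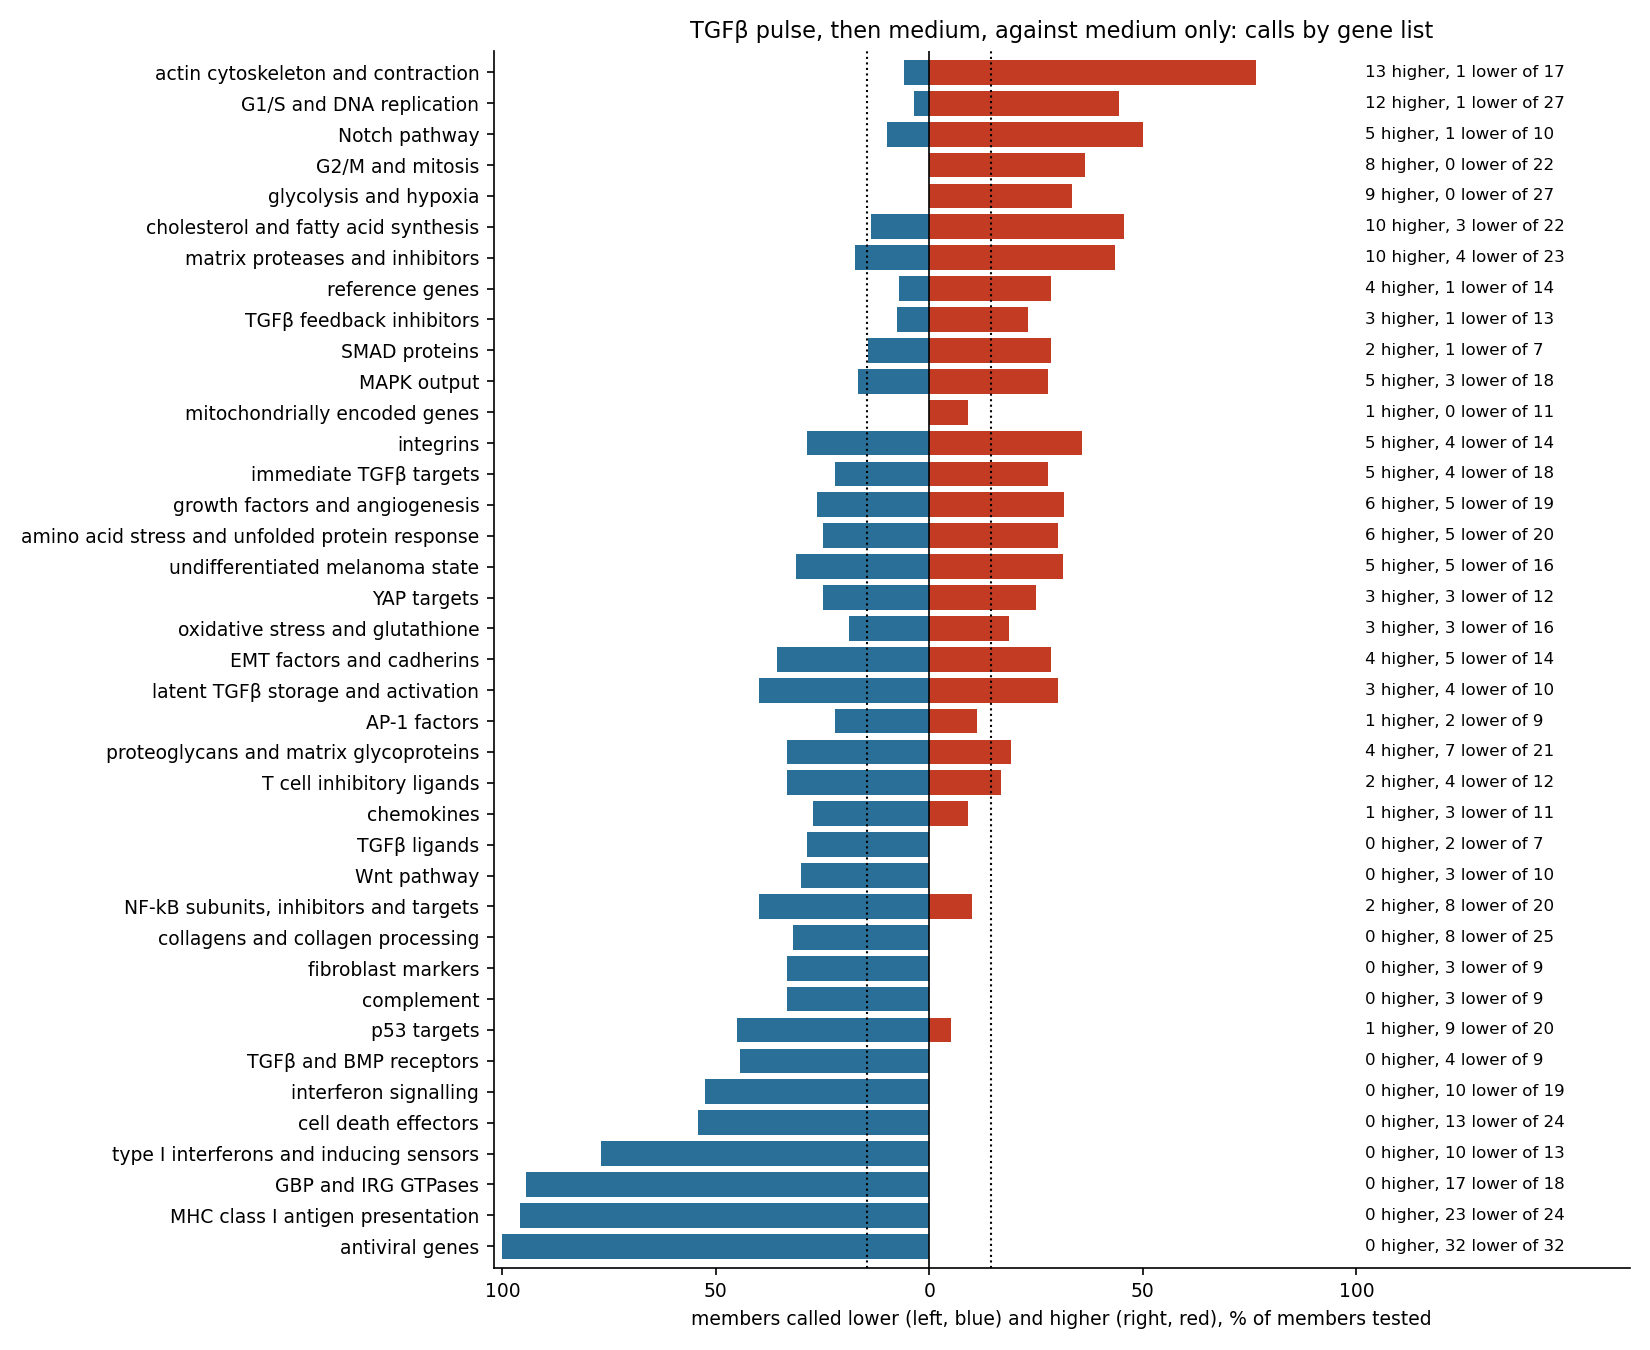
Share of the tested members of each gene list called lower (blue, left) or higher (red, right) 24 h after a TGFβ pulse, with the counts at the right and dotted lines at the share of all genes called in each direction (14.5%). All 32 antiviral genes tested were lower and 13 of 17 actin and contractile genes were higher. Lists with at least 7 tested members are drawn.

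The largest increases included several genes of the cell surface and matrix. Lamb3, which encodes the β3 chain of the basement membrane protein laminin-332, stood at 0.229, 0.0578, 0.0493 and 0.0554 CPM in medium at 2, 6, 12 and 24 h and at 4.02, 3.69, 7.62 and 8.96 CPM after the pulse. Every pulse library thus lay far above every medium library, and the change was 5.76 ± 0.47 (SE, adjusted p = 1.54e-08). Tfpi2, an inhibitor of serine proteases that is secreted into the matrix, went from 0.320, 0.116, 0.740 and 1.05 CPM to 6.93, 5.75, 9.40 and 9.53 CPM. Its change was 3.81 ± 0.31 (SE, adjusted p = 1.18e-08), with no overlap between the groups. Mmp12, the macrophage elastase, measured 1.51, 4.80, 1.28 and 1.27 CPM in medium and 27.1, 24.3, 29.6 and 26.8 CPM after the pulse, a change of 3.67 ± 0.32 (SE, adjusted p = 3.48e-08). The highest medium value of Mmp12 was that of the 6 h library, and without it the change was 4.30. Fbln2, the elastic fibre protein fibulin 2, was the most abundant of these genes and rose from 26.2, 18.7, 25.7 and 27.0 CPM to 125, 135, 225 and 251 CPM. This was a change of 2.87 ± 0.20 (SE, adjusted p = 9.55e-10), and the libraries of 12 and 24 h pulses were the highest. Itga2, the α2 chain of a collagen-binding integrin, had 26.1, 4.97, 29.4 and 33.4 CPM in medium and 91.3, 76.0, 169 and 176 CPM after the pulse. Its 6 h medium value was the lowest of the medium libraries, and the change was 2.45 ± 0.29 (SE, adjusted p = 2.17e-06) with this library and 2.14 without it.

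**Figure D2:**
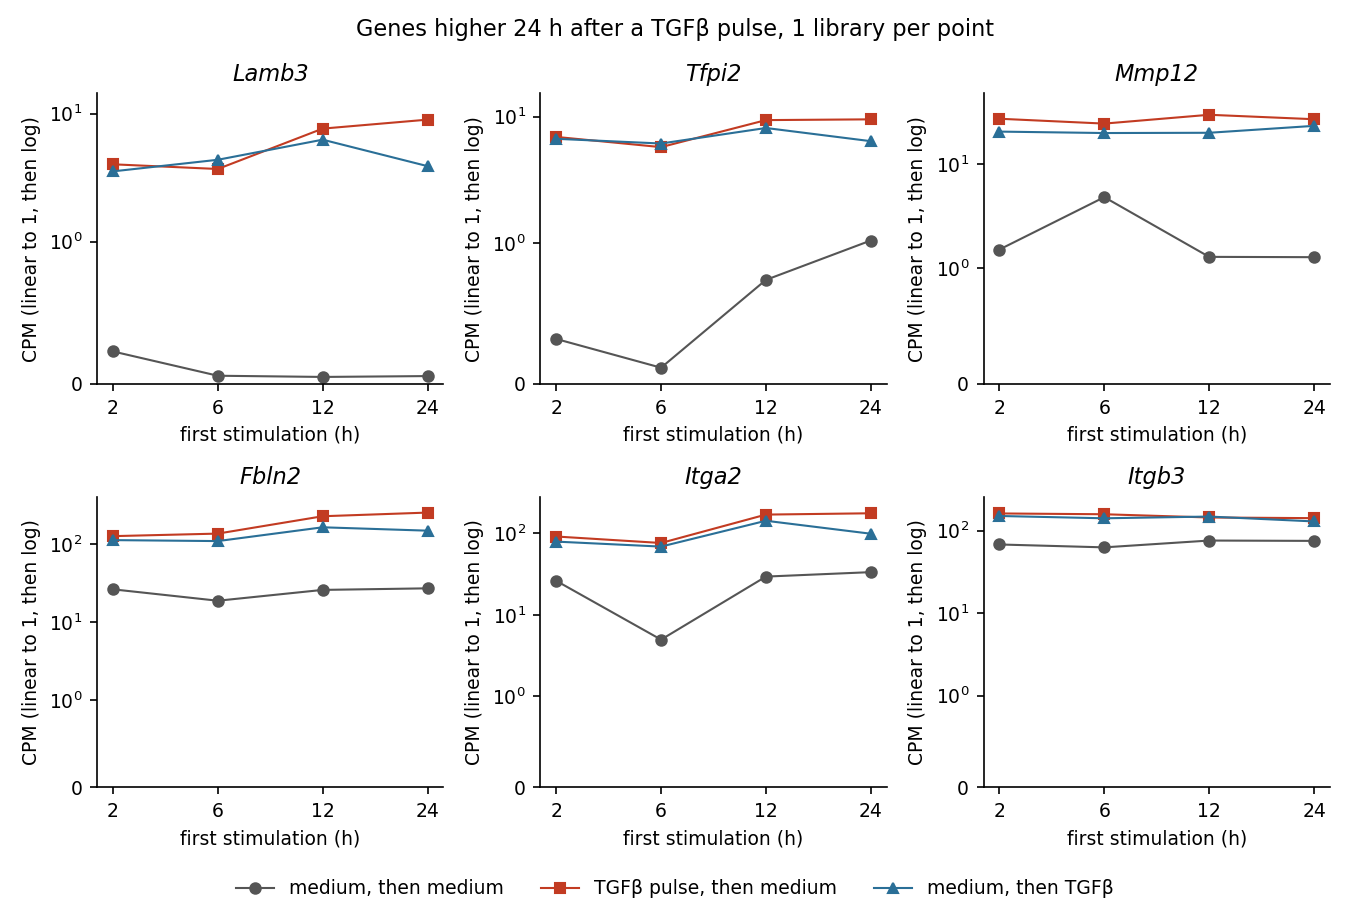
CPM of 6 genes that were higher after the pulse, by the duration of the first stimulation (h), with 1 library per point: medium only (grey circles), TGFβ pulse then medium (red squares) and medium then 24 h of TGFβ (blue triangles). The vertical axis is linear to 1 CPM and logarithmic above it. In each panel all pulse libraries lie above all medium libraries, and so do all libraries of medium then TGFβ. At 24 h the pulse library is above the one with TGFβ present for Lamb3 (8.96 and 3.88 CPM), Itga2 (176 and 98.8 CPM) and Fbln2 (251 and 147 CPM).

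The other genes among the 15 largest increases had changes of 2.03 to 3.54. Among them were Ctla2a, a relative of cysteine protease propeptides, at 3.54, the calcium pump gene Atp2b4 at 3.27, the predicted gene Gm7361 at 2.83, Aldh1a3, a retinoic acid synthesising enzyme, at 2.64 and Ggct, which cleaves γ-glutamyl amino acids in glutathione turnover, at 2.43. Fam13c rose by 2.36, the phosphodiesterase gene Pde1b by 2.19, the G protein regulator Rgs16 by 2.14 and Npr3, the clearance receptor of natriuretic peptides, by 2.03. All 15 were called without the 6 h medium library as well. Several were rare transcripts in medium, since Ctla2a, Atp2b4, Gm7361 and Tfpi2 each stayed at or below 1.11 CPM there.

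Promoter windows of 250 bases before a RefSeq start were read for Tfpi2 and Mmp12 because, among called genes with a mean of at least 5 CPM in one group, they were the second and the third in size and each holds a match to TGANTCA, the letters of the AP-1 site, set in capitals. Of several windows of a gene the one with the most matches was taken. The sequences are from RefSeq on GRCm38.p6, 5′ to 3′ on the strand of the gene. Tfpi2 (chr6:3968376-3968625, minus strand) and Mmp12 (chr9:7347124-7347373, plus strand) read as follows.
Tfpi2: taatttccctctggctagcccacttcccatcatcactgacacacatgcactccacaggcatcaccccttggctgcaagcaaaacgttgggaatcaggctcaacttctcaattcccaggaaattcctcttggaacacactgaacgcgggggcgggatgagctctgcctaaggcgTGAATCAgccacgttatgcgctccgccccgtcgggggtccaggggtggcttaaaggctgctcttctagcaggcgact
Mmp12: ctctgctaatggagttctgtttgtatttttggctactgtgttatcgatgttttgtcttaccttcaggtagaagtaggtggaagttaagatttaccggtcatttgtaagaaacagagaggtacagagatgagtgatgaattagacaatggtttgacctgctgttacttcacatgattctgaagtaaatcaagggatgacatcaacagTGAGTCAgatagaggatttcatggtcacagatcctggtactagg
Windows could be matched for 10072 of the 14935 genes tested, at 1.27 windows per gene. TGANTCA, searched on both strands, was in at least 1 window of 6.20% of the called higher genes, 6.49% of the called lower and 5.70% of all genes with a window. CAGAC, the short SMAD box searched on both strands, was in 43.7%, 46.1% and 45.4%. Neither motif was thus more than slightly above the share of all genes in either direction of the comparison over all durations. The Lamb3 window (chr1:193301744-193301993) held 2 matches to CAGAC and none to TGANTCA.

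TGFβ pathway genes themselves showed small changes 24 h after the pulse. Of 18 immediate TGFβ targets tested, 5 rose and 4 fell. Id1, a helix-loop-helix inhibitor that BMP signalling raises, fell from 15.5, 23.9, 13.6 and 11.8 CPM to 10.0, 7.76, 7.74 and 7.41 CPM with a change of -0.96 ± 0.14 (SE, adjusted p = 2.36e-05).

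Of 13 feedback inhibitors, 3 rose and 1 fell, and of 7 SMAD genes 2 rose and 1 fell, against 14.5% of all genes in each direction. Smad7, the inhibitory SMAD, measured 39.9, 37.4, 41.4 and 37.9 CPM in medium and 46.7, 32.3, 60.1 and 59.1 CPM after the pulse. The 6 h pulse library lay below all medium libraries and the other three above them, and the change was 0.32 ± 0.11 (SE, adjusted p = 0.0402). This call was lost when any 1 of 5 libraries was left out, the medium libraries of 2, 12 and 24 h and the pulse libraries of 12 and 24 h, with changes of 0.23 to 0.32. Within the 12 and 24 h pulses the change of Smad7 was 0.59 ± 0.09 (SE, adjusted p = 0.00013), and within 2 and 6 h it was 0.02 ± 0.10 (SE, adjusted p = 0.915). These pairs of durations were chosen after the data were seen. Ldlrad4, a membrane protein that keeps SMADs from the receptor, had 7.91, 9.19, 7.25 and 7.42 CPM and 15.4, 14.1, 18.7 and 22.3 CPM, a change of 1.13 ± 0.13 (SE, adjusted p = 1.04e-06) without overlap. Pmepa1, its relative, had 112, 173, 104 and 113 CPM and 169, 152, 179.6 and 211 CPM. The groups overlapped through the 6 h libraries, and the change was 0.52 ± 0.11 (SE, adjusted p = 0.0011). Smad6 fell by 0.80 on the log2 scale and Smad5, a SMAD of the BMP branch, rose by 0.33. Skil, which encodes the SMAD corepressor SnoN, had 180.5, 209, 193 and 182 CPM in medium and 203, 212, 187 and 188 CPM after the pulse, with a change of 0.05 ± 0.05 (SE, adjusted p = 0.57).

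Of 7 ligand genes 2 fell, Tgfb3 with -0.59 ± 0.07 (SE, adjusted p = 1.8e-06) and Bmp4 with -0.52 ± 0.12 (SE, adjusted p = 0.00169). Of 9 receptor genes 4 fell. The coreceptor gene Tgfbr3 fell from 70.3, 149.9, 71.1 and 65.1 CPM to 49.4, 63.7, 39.2 and 27.2 CPM, and the endothelial coreceptor gene Eng had a change of -0.68 ± 0.09 (SE, adjusted p = 7.04e-06). Tgfbr1 changed by -0.44 and Tgfbr2 by -0.32, and without the 6 h medium library, in which both were highest, by -0.31 and -0.19. Tgfb1 had 47.7, 84.7, 46.0 and 48.9 CPM in medium and 58.2, 55.8, 61.7 and 49.9 CPM after the pulse. Its change was 0.00 ± 0.12 (SE, adjusted p = 0.985) with all libraries and 0.24 ± 0.07 (SE, adjusted p = 0.00933) without the 6 h medium library, which decided whether it was called. Among 10 genes of latent TGFβ storage and activation 3 rose and 4 fell. The latent TGFβ binding protein gene Ltbp4 and the coreceptor gene Nrp2 rose by 0.64 and 0.97, and Thbs2, a thrombospondin of the matrix, fell from 1649.8, 3520.1, 1410.4 and 1464 CPM to 855, 949.7, 555 and 458 CPM, with a change of -1.48 ± 0.18 (SE, adjusted p = 3.33e-06).

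Genes of the cytoskeleton rose together in modest steps. Of 17 actin and contractile genes tested 13 rose and 1 fell, with a median change of 0.28 against 0.00 for all genes. Tnnt2, the cardiac troponin T gene, measured 148, 164, 149 and 146 CPM in medium and 393, 449, 459 and 485 CPM after the pulse, and its change was 1.56 ± 0.10 (SE, adjusted p = 1.99e-10). Every duration showed the difference and the spread within each group was small. Actb, the cytoplasmic β-actin gene, rose from 1273, 1197, 1207 and 1326 CPM to 1671, 1428, 2087 and 1955 CPM and Flna, the actin crosslinker filamin A, by 0.54. Because Actb is also a common reference gene, the 14 reference genes were counted and 4 were higher and 1 lower, among them Ywhaz, a 14-3-3 protein, with a change of 0.50 and Hprt, a purine salvage enzyme, with 0.27.

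Of 14 integrin genes 5 rose and 4 fell. Itgb3, the β3 subunit, had 68.0, 62.7, 75.9 and 75.2 CPM in medium and 162, 158, 145 and 142 CPM after the pulse, and the change of 1.11 ± 0.07 (SE, adjusted p = 1.99e-10) came with no overlap. The 2 and 6 h pulses gave slightly higher values of Itgb3 than the 12 and 24 h pulses. Itgb1, the common β1 subunit, rose by 0.74. Among 23 matrix proteases and inhibitors 10 rose and 4 fell, and Adam12, a metalloprotease and disintegrin, went from 0, 0.116, 0.0493 and 0.0554 CPM to 0.853, 0.959, 2.41 and 4.31 CPM. Its change was 5.09 ± 0.52 (SE, adjusted p = 2.77e-07), and every pulse library was above every medium library.

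The collagen list turned on 1 library. With all medium libraries 0 of 25 collagen and collagen-processing genes rose and 8 fell, while without the 6 h medium library 6 rose and 4 fell. Col3a1, a fibrillar collagen, had 544, 1461, 483 and 481 CPM in medium and 424, 523, 354 and 297 CPM after the pulse. Its change was -0.85 ± 0.25 (SE, adjusted p = 0.0111) with the 6 h medium library and -0.32 ± 0.16 (SE, adjusted p = 0.145) without it. Fibroblast markers, of which Col3a1 is one, had 0 of 9 tested members higher and 3 lower, and their part in the collagen counts was not tested. Pcolce, an enhancer of procollagen processing, fell under both settings, from 130.3, 177, 123 and 123 CPM to 69.7, 72.5, 51.5 and 47.6 CPM with a change of -1.20 ± 0.11 (SE, adjusted p = 4.62e-08). Loxl3, a lysyl oxidase that crosslinks collagen, changed by -0.76. Of 21 proteoglycans and matrix glycoproteins 4 rose and 7 fell, with Fbln2 at the top and Prg4, the lubricant proteoglycan, at the bottom. Prg4 stood at 2.06, 51.0, 1.58 and 2.21 CPM in medium and 0.803, 0.863, 0.0573 and 0.230 CPM after the pulse, so that its change of -4.15 was -2.26 without the 6 h library.

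Growth factor and Notch genes gave mixed lists with some clear members. Of 10 Notch pathway genes 5 rose and 1 fell. Jag1, a Notch ligand, had 43.9, 41.6, 43.6 and 42.5 CPM in medium and 90.3, 60.5, 182 and 228 CPM after the pulse, with a change of 1.55 ± 0.20 (SE, adjusted p = 8.29e-06). The value after 24 h of TGFβ was the highest and that after 6 h the lowest of the pulse libraries, and all of them were above the medium range. The receptor gene Notch2 and the target Hes1 rose by 0.47 and 0.43. Of 19 growth factor and angiogenesis genes 6 rose and 5 fell. Hbegf, an EGF receptor ligand, measured 52.8, 27.7, 66.3 and 65.1 CPM and 83.3, 47.7, 172 and 185 CPM, with a change of 1.09 ± 0.15 (SE, adjusted p = 9.38e-06) and with overlap between the 6 h pulse and the medium libraries. Igfbp3, an IGF carrier, rose from 185, 90.2, 188 and 209 CPM to 362, 295, 409 and 374 CPM. Igfbp5, another carrier, had 568, 4064, 485 and 428 CPM in medium and 413, 524, 310.1 and 249 CPM after the pulse, and its change of -1.57 was -0.54 without the 6 h medium library.

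Proliferation genes also moved with the 6 h medium library. Of 27 G1/S and replication genes 12 rose and 1 fell with it, and 7 rose and 2 fell without it. For 22 G2/M genes the counts were 8 and 0 with it, and 4 and 0 without it. The median difference of the G2/M genes at 2, 6, 12 and 24 h was 0.07, 0.92, 0.09 and 0.16. Myc, the growth regulator, was higher at every duration, with 207, 84.8, 175 and 207 CPM in medium and 302, 187, 294 and 322 CPM after the pulse, and a change of 0.59 without the 6 h medium library (adjusted p = 0.000175). Mki67, a proliferation marker, had 350.4, 165, 419.7 and 368 CPM and 394, 427, 481 and 592 CPM, and its adjusted p of 0.013 became 0.0527 without that library. Without the duration factor 5 of the G1/S and 2 of the G2/M genes were higher. Of 27 glycolysis and hypoxia genes 9 rose and 0 fell, which became 3 and 0 without the duration factor and was 3 and 3 when IFNγ followed the pulse. Among those that rose were Ndrg1, a hypoxia-induced gene, with 1.02 ± 0.15 (SE, adjusted p = 2.37e-05) and Egln3, an oxygen-sensing hydroxylase, with 0.74. Of 20 p53 targets 1 rose and 9 fell, and of 24 cell death effectors 0 rose and 13 fell, with Bax, the mitochondrial pore former, at -0.68 ± 0.11 (SE, adjusted p = 0.000106) and Gsdmd, the pore-forming gasdermin D, at -1.60 ± 0.30 (SE, adjusted p = 0.000346).

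Interferon-stimulated genes made up the largest coherent decrease. All 32 antiviral genes tested fell, with a median change of -2.08, against 14.5% of all genes called lower. So did 17 of 18 guanylate-binding and immunity-related GTPases (median -2.28), 23 of 24 genes of MHC class I presentation (median -1.59), 10 of 19 interferon signalling genes and 10 of 13 genes for type I interferons and the sensors that induce them. None of these lists had a member that rose. Without the 6 h medium library the counts were 32, 18, 23, 10 and 10. Without the duration factor in the model these counts were 8, 12, 16, 3 and 6.

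The size of the decrease differed between the libraries of 2 and 6 h and those of 12 and 24 h. Some other sequences were lower at 12 and 24 h too, as given below. The length of the pulse and whatever else these libraries share therefore cannot be told apart. Oas2, an oligoadenylate synthetase that senses double-stranded RNA, measured 112, 85.9, 135 and 136 CPM in medium at 2, 6, 12 and 24 h and 55.4, 38.7, 0.917 and 0.689 CPM after the pulse. The 2 and 6 h pulses left a reduced but clearly measurable level, and after the 12 and 24 h pulses Oas2 was below 1 CPM. Ifit3, an antiviral protein that binds foreign RNA, went from 768, 439, 859 and 882 CPM to 448, 274, 16.4 and 8.21 CPM, and Cmpk2, a mitochondrial nucleotide kinase induced by interferon, from 489, 206, 525 and 554 CPM to 270.1, 162, 13.1 and 5.57 CPM. Isg20, an antiviral exonuclease, showed 57.9, 27.5, 51.7 and 62.0 CPM and 32.7, 24.0, 7.05 and 4.88 CPM. All 4 genes were much lower after the 12 h than after the 6 h pulse, and for Ifit3, Cmpk2 and Isg20 the 2 h pulse value lay above the 6 h medium value, so that the groups overlapped. Ifit3 and Ifit3b are near-identical neighbours whose reads may be shared, and the same caution holds for the Gbp and H2 families.

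Median differences of the antiviral list at 2, 6, 12 and 24 h were -0.54, -0.43, -4.33 and -5.32 on the log2 scale. Within the 2 and 6 h pulses alone 1356 of all genes were higher (9.08%) and 1386 lower (9.28%), and 5 of the 32 antiviral genes were lower, with a median of -0.49. Without the 6 h medium library that window called 847 genes and 3 antiviral ones. Within the 12 and 24 h pulses 1723 genes were higher (11.5%) and 1756 lower (11.8%), and all 32 antiviral genes were lower, with a median of -4.73. Both pairs of durations were chosen after the data were seen, so calls within and between them are not independent tests of this split. The difference between both pairs was tested itself, as a step. It was called for 172 genes upwards (1.15%) and 410 downwards (2.75%), and 31 of the 32 antiviral genes were among the latter. The GTPase list had 15 of 18 members lower at the step and the MHC class I list 19 of 24. A linear slope on log2 duration instead called 1 gene, the predicted gene Gm4841, with 803 genes at an unadjusted p below 0.05 in edgeR and 182 called by DESeq2. The medium library of 2 h weighed on this test, since without it 714 genes had a called slope.

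**Figure D3:**
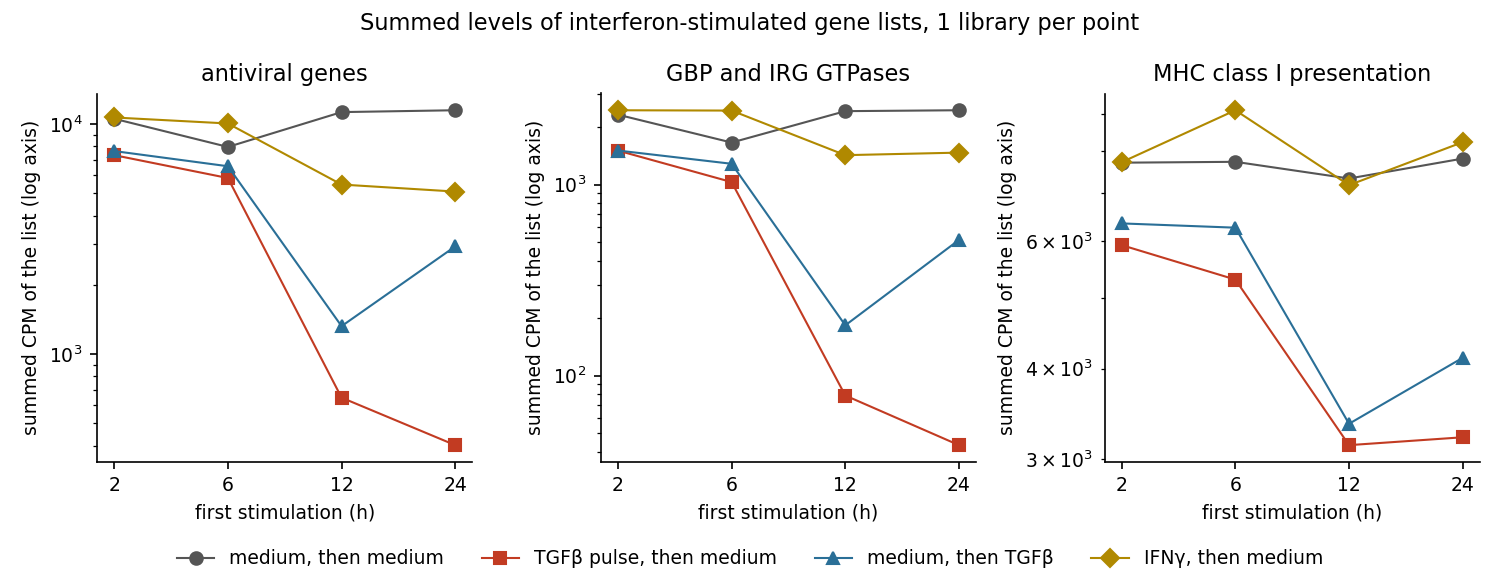
Summed CPM (log axis) of the antiviral, GTPase and MHC class I lists in each library by the duration of the first stimulation (h), for medium only (grey circles), TGFβ pulse then medium (red squares), medium then 24 h of TGFβ (blue triangles) and IFNγ then medium (yellow diamonds). The pulse libraries fall from 5829 to 646 CPM between 6 and 12 h for the antiviral list, and the 3 other groups are drawn beside them because 2 of them, medium then TGFβ and IFNγ then medium, are lower at 12 and 24 h as well for the antiviral and GTPase lists.

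Libraries with a first stimulation of 12 and 24 h were lower in some other sequences too. Summed over the antiviral list, medium libraries held 10553, 7957, 11278 and 11490.2 CPM and pulse libraries 7328, 5829, 646 and 402 CPM at 2, 6, 12 and 24 h. Medium then IFNγ, like medium only, showed no such drop, with 20642, 18943, 18995 and 22700 CPM. TGFβ then IFNγ held 19754, 17567, 10711 and 6061 CPM, and IFNγ then TGFβ 7572, 8801, 3846 and 4064 CPM. In medium then TGFβ, where TGFβ acted for 24 h whatever the duration of the first medium, the sums were 7635, 6559, 1323 and 2939 CPM. In IFNγ then medium they were 10687, 10063, 5461 and 5089.6 CPM. A longer pulse and whatever else the 12 and 24 h libraries have in common therefore cannot be told apart. Of the mitochondrially encoded genes 5 of 11 were higher and 0 lower at the same step, and their part in the result was not tested. Transcripts of type I interferon itself were few. Ifnb1, the interferon beta gene, had 14, 16, 27 and 12 counts in the medium libraries and 10, 4, 0 and 0 counts in the pulse libraries, where 0 allows up to 3 counts. Its change was -2.38 ± 0.65 (SE, adjusted p = 0.00749).

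The interferon-type element, 2 GAAA blocks with 2 bases between them (GAAANNGAAA, both strands), was present in the promoter windows of 10 of the 22 antiviral genes with a window, 9 of 11 GTPase genes and 3 of 20 MHC class I genes. The share among all genes with a window was 3.22%, among called lower genes 6.80%, among called higher genes 2.17%, among genes lower at the step 21.5% and among genes higher at the step 0%. TGANTCA was in 11.9% of the genes lower at the step, 5.93% of those higher and 5.70% of all genes with a window. The windows of Ifit1, Rsad2 and Ifit3 are shown, from RefSeq on GRCm38.p6, 5′ to 3′ on the strand of the gene and with the element in capitals, as examples of antiviral genes that hold it, chosen after their values were seen. Ifit3b, the near-identical neighbour of Ifit3, also holds it at 2 places and had a slightly lower adjusted p (0.00378 and 0.00408). Ifit1 lies at chr19:34640639-34640888 and Ifit3 at chr19:34583279-34583528, both on the plus strand, and Rsad2 at chr12:26456453-26456702 on the minus strand.
Ifit1: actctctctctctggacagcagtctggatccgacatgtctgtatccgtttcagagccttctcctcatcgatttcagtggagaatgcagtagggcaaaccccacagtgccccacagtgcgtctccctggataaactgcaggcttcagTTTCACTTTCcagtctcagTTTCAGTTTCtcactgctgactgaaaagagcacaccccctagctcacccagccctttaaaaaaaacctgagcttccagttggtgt
Rsad2: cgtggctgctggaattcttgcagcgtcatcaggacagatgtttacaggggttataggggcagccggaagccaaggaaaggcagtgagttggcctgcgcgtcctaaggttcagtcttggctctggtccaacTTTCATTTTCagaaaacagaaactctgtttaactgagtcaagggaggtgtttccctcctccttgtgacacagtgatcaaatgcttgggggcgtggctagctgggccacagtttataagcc
Ifit3: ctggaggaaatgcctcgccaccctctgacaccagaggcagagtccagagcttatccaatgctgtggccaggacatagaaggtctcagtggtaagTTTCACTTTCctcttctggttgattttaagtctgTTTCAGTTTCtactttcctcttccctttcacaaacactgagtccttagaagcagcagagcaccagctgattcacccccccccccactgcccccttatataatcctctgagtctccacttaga
Read on the strand of the gene, the element appears in them as TTTC blocks, at 2 places in Ifit1 and Ifit3 and at 1 place in Rsad2. The changes of these genes were -2.18 for Ifit1, -2.38 for Rsad2 and -2.97 for Ifit3. The antiviral genes with the lowest p-values were Ifi27l2a, Ifit2 and Isg20, and the windows read for Ifit2 and Isg20 did not hold these letters.

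Genes of antigen presentation fell, while chemokines and T cell inhibitory ligands were mixed. Tap2, a subunit of the peptide transporter, measured 34.2, 34.8, 36.0 and 39.0 CPM in medium and 20.3, 16.6, 7.45 and 5.17 CPM after the pulse, a change of -1.61 ± 0.25 (SE, adjusted p = 4.06e-05). H2-M3, a nonclassical class I chain, and Tapbpl, a peptide editor, changed by -1.51 and -1.04. All pulse libraries lay below the medium range for Tap2, and those of 12 and 24 h were lowest. Of 11 chemokines 1 rose and 3 fell. Cxcl12, the ligand of CXCR4, was the one that rose, with 2.08 ± 0.49 (SE, adjusted p = 0.0025), from 0.0457, 0.0578, 0.197 and 0.111 CPM to 0.201, 0.240, 0.917 and 0.459 CPM, and was thus rare throughout. Cxcl10, a chemokine that attracts T cells, had 155, 37.1, 186 and 198 CPM and 122, 55.5, 4.36 and 4.19 CPM. Here the 6 h pulse library was above the 6 h medium library, and the change of -2.57 split into -5.48 ± 0.58 (SE, adjusted p = 8.99e-07) within 12 and 24 h and -0.06 ± 0.43 (SE, adjusted p = 0.949) within 2 and 6 h. Cd274, the gene of PD-L1, an inhibitory ligand for T cells, was at 21.1, 10.8, 24.5 and 24.5 CPM in medium and 16.6, 7.43, 1.03 and 1.32 CPM after the pulse, and the change was -1.90 ± 0.46 (SE, adjusted p = 0.00316). Of 12 T cell inhibitory ligands 2 rose and 4 fell, and 3 were lower at the step. Lgals9, galectin 9, fell to 49.2, 35.8, 1.72 and 0.747 CPM from 98.1, 80.3, 92.0 and 99.4 CPM, while Nt5e, the adenosine-forming ectoenzyme CD73, rose from 88.9, 69.7, 90.2 and 87.6 CPM to 209, 206, 187 and 175 CPM with 1.20 ± 0.09 (SE, adjusted p = 7.54e-09). Without the duration factor 2 of the inhibitory ligands rose and 1 fell, 0 chemokines rose and 1 fell, and the calls of Cd274, Cxcl10, Cxcl12 and Lgals9 were lost (adjusted p = 0.0504, 0.172, 0.0531 and 0.0607 in edgeR), while Nt5e stayed called. Tlr3, a sensor of double-stranded RNA, changed by -2.37, and the signalling genes Tbk1 and Stat3 by -0.40 and -0.62. Of 20 NF-kB genes 2 rose and 8 fell.

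Decreases outside the interferon lists included several secreted and membrane proteins. Apod, a lipid carrier of the lipocalin family, went from 8.50, 12.3, 8.29 and 9.03 CPM to 1.10, 1.49, 0.0573 and 0 CPM, a change of -4.11 ± 0.55 (SE, adjusted p = 9.64e-06). Sod3, the extracellular superoxide dismutase, had 6.12, 51.8, 4.14 and 5.70 CPM and 1.66, 1.20, 0.344 and 0.287 CPM. In the 6 h medium library Sod3 was several times above the other medium libraries, and the change was -3.84 with it and -2.81 without it. Aox3, an aldehyde oxidase, Aqp5, a water channel, Cp, the copper carrier ceruloplasmin, and Cpm, a membrane carboxypeptidase, had their highest value in this 6 h medium library. Without it their changes were -3.38, -2.48, -2.51 and -2.16, and all 4 stayed called. Ly6a, the surface protein Sca-1, measured 23.0, 19.4, 21.4 and 24.7 CPM and 4.22, 2.64, 0.115 and 0.0574 CPM, and Mpeg1, the pore former perforin-2, 12.1, 7.22, 12.1 and 12.6 CPM and 3.41, 0.959, 0.287 and 0.0574 CPM. Both were below the medium range after every pulse and lowest after 12 and 24 h. In medium then IFNγ Ly6a measured 137, 142, 119 and 112 CPM and Mpeg1 256, 227, 182 and 200 CPM, far above medium only. Standing outside the lists thus does not set these genes apart from those that are higher with IFNγ. Plvap, a diaphragm protein of endothelial vesicles, fell evenly, from 17.6, 16.1, 16.5 and 17.8 CPM to 3.81, 5.08, 5.27 and 3.85 CPM with -1.92 ± 0.17 (SE, adjusted p = 4.62e-08). Gpnmb, a glycoprotein of pigment cells, fell from 170.4, 275, 153 and 151 CPM to 64.5, 71.0, 37.1 and 27.3 CPM.

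**Figure D4:**
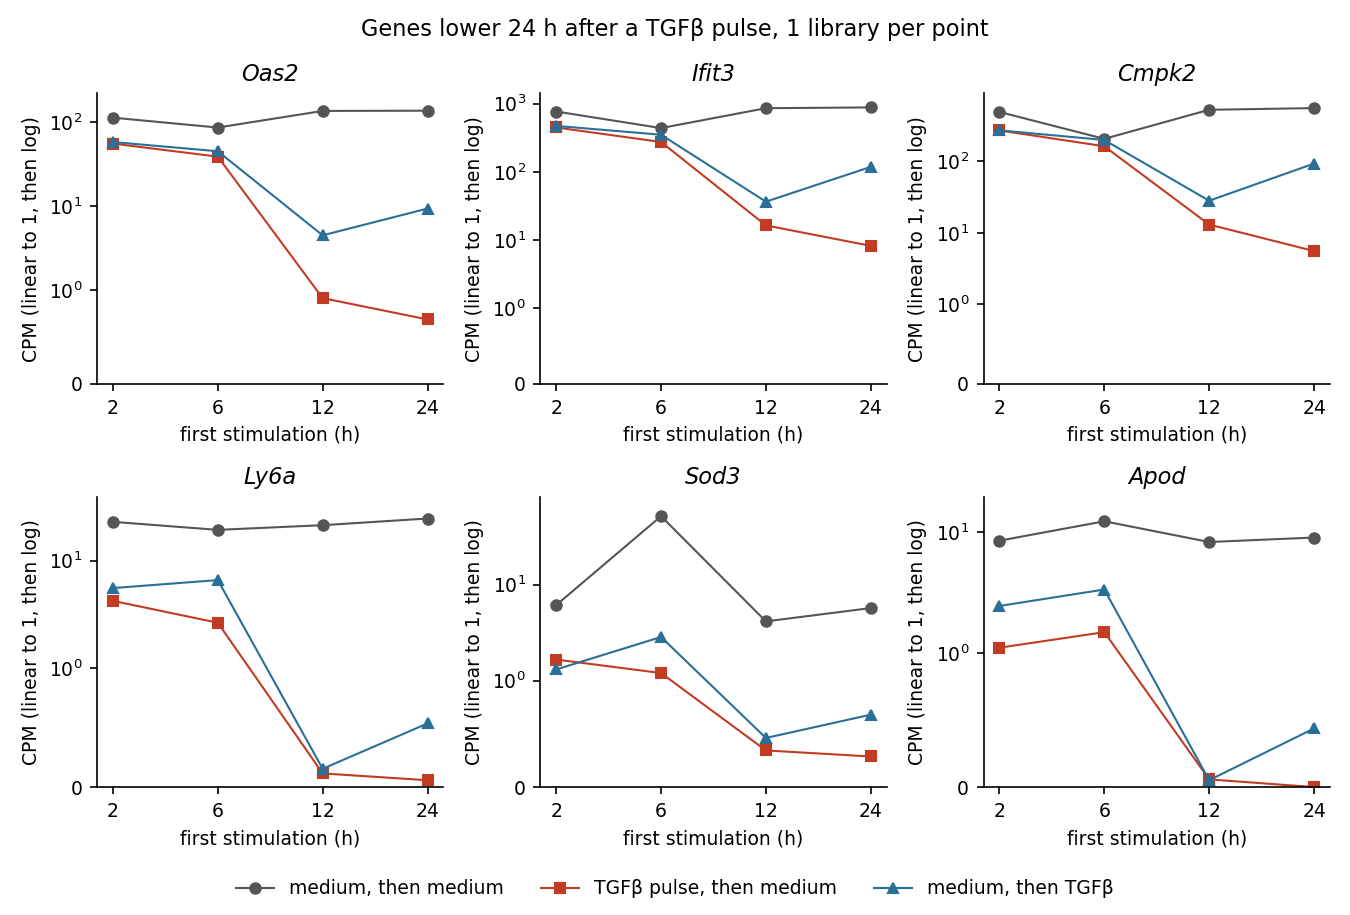
CPM of 6 genes that were lower after the pulse, by the duration of the first stimulation (h), with 1 library per point: medium only (grey circles), TGFβ pulse then medium (red squares) and medium then 24 h of TGFβ (blue triangles). The vertical axis is linear to 1 CPM and logarithmic above it. The interferon-stimulated genes Oas2, Ifit3 and Cmpk2 drop between the 6 h and the 12 h pulse, and Sod3 has its highest medium value at 6 h.

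How far the washed-out state lay from a state with TGFβ present was tested directly against the 4 libraries with medium and then 24 h of TGFβ. Those cells met TGFβ only in the last 24 h, whereas the pulse began earlier and lasted 2 to 24 h. Washout, length of exposure and time since its start therefore cannot be told apart here. In edgeR 0 genes differed over all durations, with 928 at an unadjusted p below 0.05, and DESeq2 called 33. Without all libraries of 24 h edgeR called 17. A miss of the threshold does not show equal levels, so the 95% intervals of the difference, withdrawn minus present, are given. They hold for single genes and are not adjusted for the number of genes tested, so an interval that leaves out 0 is not a call. The interval was -0.18 to 0.21 for Tnnt2, -0.05 to 0.23 for Itgb3 and 0.07 to 0.82 for Fbln2, with Fbln2 levels of 112, 108, 163 and 147 CPM while TGFβ was present. For the feedback gene Smad7 it was -0.53 to -0.06, with 55.8, 47.2, 71.5 and 66.6 CPM while TGFβ was present, and for Pmepa1 -0.47 to -0.01. The interval of Oas2 was wide, -1.71 to 0.92.

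Within the 12 and 24 h libraries, a pair chosen after the data were seen, the pulse libraries and those with TGFβ present did differ. In the pulse libraries 2 genes were higher (0.0134%) and 108 lower (0.723%). Of the antiviral list 27 of 32 genes were lower in the pulse libraries than with TGFβ present, of the GTPases 12 of 18 and of the MHC class I genes 5 of 24. Oas2, at 57.8, 44.9, 4.51 and 9.37 CPM with TGFβ present, differed by -3.11 ± 0.56 (SE, adjusted p = 0.00541) and Gbp6, a guanylate-binding GTPase, by -3.08 ± 0.45 (SE, adjusted p = 0.000914). The 2 genes that were higher were Fbln2, with 0.62 ± 0.12 (SE, adjusted p = 0.0126), and Ulbp1, a ligand of the NK cell receptor NKG2D that was named after its value was seen, with 0.81 ± 0.17 (SE, adjusted p = 0.0268). Against the same medium libraries, medium then 24 h of TGFβ gave 1740 genes higher (11.7%) and 1736 lower (11.6%). Both comparisons share the medium libraries, so their values stand side by side only: Smad7 changed by 0.32 after the pulse and 0.61 with TGFβ present, Lamb3 by 5.76 and 5.38, and Oas2 by -3.06 and -2.67.

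The pulse was also followed by 24 h of IFNγ instead of medium. These libraries are in neither group of the comparison above, but the fit shares its duration terms and its estimate of the spread with them. TGFβ then IFNγ against medium then IFNγ gave 1291 genes higher (8.64%) and 1074 lower (7.19%), 2365 in all, which became 1034 without all libraries of 12 h and 1317 without those of 24 h. All 15 genes with the largest increases before medium were called higher before IFNγ too, and of the 15 largest decreases 6 were called lower. Fbln2 measured 13.4, 13.2, 13.3 and 12.4 CPM in medium then IFNγ and 88.7, 92.3, 165 and 207 CPM in TGFβ then IFNγ, a change of 3.33 ± 0.20 (SE, adjusted p = 5.25e-11). Among the decreases Apod was called with -2.75 ± 0.48 (SE, adjusted p = 0.000295) and Plvap, outside those 15, with -2.13 ± 0.18 (SE, adjusted p = 1.66e-08). Sod3 was not, with -1.09 ± 0.60 (SE, adjusted p = 0.238). The actin list had 10 of 17 members higher and 1 lower.

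**Figure D5:**
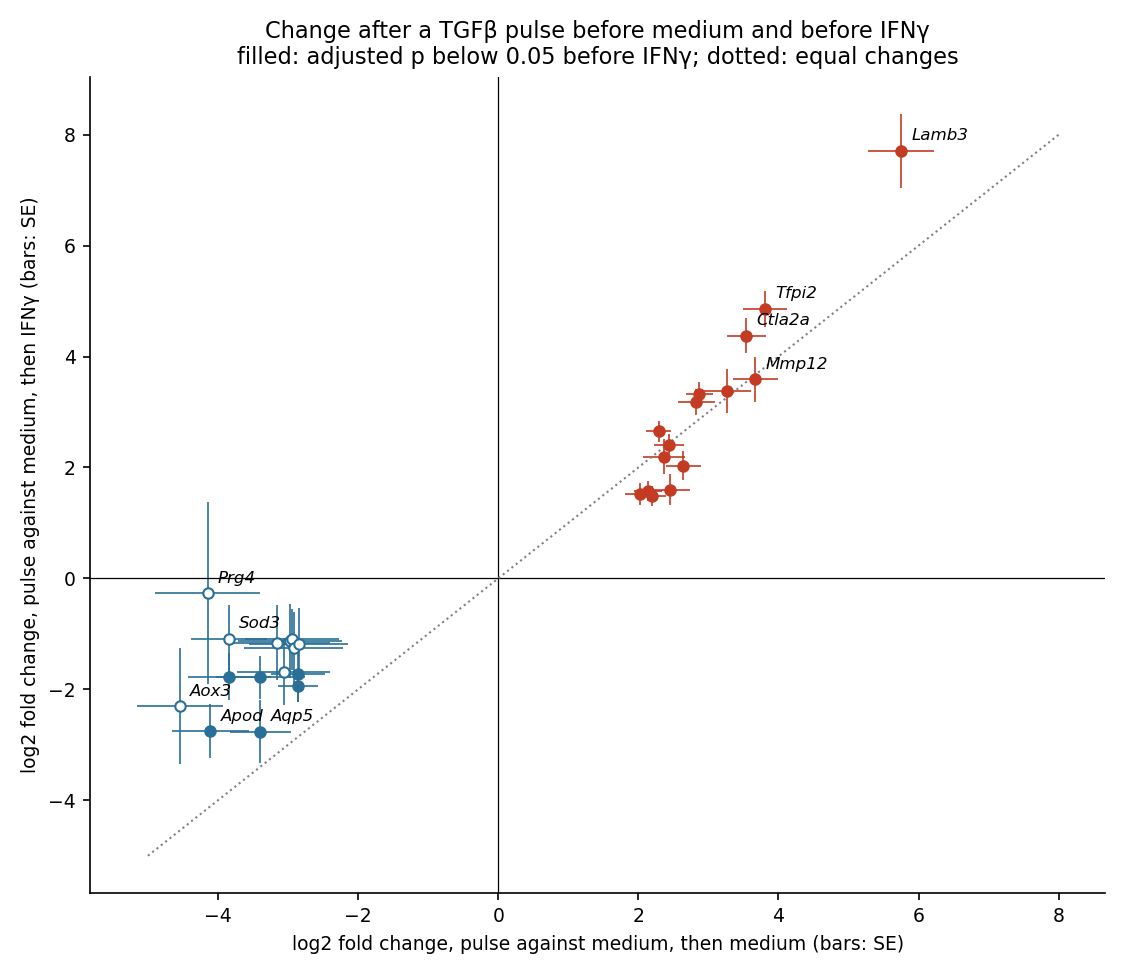
Log2 fold change after a TGFβ pulse against medium when medium followed (horizontal) and when IFNγ followed (vertical), for the 15 most raised (red) and the 15 most lowered (blue) genes, with SE bars and a dotted line of equal changes. Filled points were called before IFNγ: all 15 raised genes and 6 of the 15 lowered ones.

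Most interferon-stimulated genes did not pass the test when IFNγ followed. Of the antiviral genes 1 of 32 was called lower before IFNγ, of the GTPases 3 of 18 and of the MHC class I genes 5 of 24. Median differences of the antiviral list at 2, 6, 12 and 24 h were -0.06, -0.12, -0.70 and -1.79. Ifit3 stood at 1739.9, 1505, 1692 and 2086 CPM in medium then IFNγ and at 1664, 1297, 870.5 and 372 CPM in TGFβ then IFNγ, and Cxcl10 at 1126, 994, 1034 and 1192 CPM and 1315, 1225, 629 and 331 CPM. Levels at 12 and 24 h were again the lowest after the pulse. Cd274 measured 284, 269, 249 and 284 CPM and 307, 315, 184 and 123 CPM, with a change of -0.35 ± 0.37 (SE, adjusted p = 0.575).

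Whether the effect of the pulse differed between the second stimuli was tested as an interaction. It was called for 48 genes upwards (0.321%) and 11 downwards (0.0737%), 59 in all, which became 201 without the 2 h medium library and 8 without all libraries of 12 h. Tnnt2, which rose by 1.56 before medium and 3.30 before IFNγ, had an interaction of 1.74 ± 0.13 (SE, adjusted p = 6.97e-08). Its level was 52.0 ± 5.04 CPM (SD, n = 4) in medium then IFNγ and 510.0 ± 25.1 CPM in TGFβ then IFNγ. Fgf2, a fibroblast growth factor, had changes of 0.40 and 1.95, with an interaction of 1.54 ± 0.19 (SE, adjusted p = 0.000156). Skil was called before IFNγ only, at 0.59, and its interaction was 0.54 ± 0.08 (SE, adjusted p = 0.000495). Ntn1, the guidance cue netrin 1, fell by 1.56 before medium and had a change of 0.17 before IFNγ, with an interaction of 1.73 ± 0.28 (SE, adjusted p = 0.00298). None of the 30 genes with the largest changes and none of the antiviral, GTPase and MHC class I genes had a called interaction, with median interactions of 1.35, 1.77 and 0.96 in these 3 lists.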

How the data were processed

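Polyadenylated RNA of NMM cells was sequenced in 29 libraries with a strand-marking kit, per the labels' protocols. The authors deposited raw read counts per gene for 28229 genes. Alignment with HISAT to GRCm38 is named per the submitters' processing notes, and no source used here gives the counting tool, the annotation or the strand setting, so overlapping genes and near-identical families may share reads. Counts were modelled in R 4.3.3 with edgeR 4.0.16 (TMM normalization, filterByExpr at a minimum count of 10, quasi-likelihood test, Benjamini-Hochberg adjustment over 14935 genes) on all 29 libraries with group and duration of the first stimulation as factors, leaving 18 residual degrees of freedom. Library totals were 17179530 to 23668015 counts. CPM used TMM-scaled library sizes, and log2 CPM a prior count of 2. The pulse length was tested as a difference of slopes on log2 duration. Pairs of durations (2 and 6 h, 12 and 24 h) and their difference, the step, came from a model with a term for each group in each pair. These pairs were chosen after seeing the data. Alternatives were DESeq2 1.42.0 and its size factors, no filter, no duration factor, the 8 libraries alone and each library or duration left out. The procedure was tested on simulated data with known fold changes. The simulated libraries were independent, with a common spread, no effect of duration and no library that stood apart. They therefore do not show how the calls behave under those features of the real data.

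Named genes were the 15 largest changes in each direction among called genes with a mean of at least 5 CPM in one group and the same sign at all 4 durations, up to 3 called members with the lowest p in each list, further genes whatever their values (among them Smad7, Skil, Tgfb1, Tgfbr1, Tgfbr2, Cd274), and the 5 largest called changes in each direction of the other tests. The members and lists were chosen with earlier results of these data known. Genes named outside this rule, chosen after their values were seen, are Gm4841, Ifnb1, Ifit1, Rsad2 and Ulbp1, besides the cell type markers. Some items that these rules select are not reported here.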

Additional observations from a re-analysis of the deposited data

Results flagged for a closer look

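Genes named only as members of a list, such as Col3a1 and Igfbp5, were not counted in this section. Among the 15 largest changes in each direction and the genes named whatever their values, 15 had 1 medium library that stood apart. This was judged on the log2 CPM scale by the gap to the nearest of the 4 libraries as a share of the whole range. Dixon's critical value was the limit, which chance passes in about 1 of 20 groups. For Lamb3, with a ratio of 0.931, the library that stood apart was that of 2 h. For the others it was the 6 h library, with ratios of 0.876 for Mmp12, 0.873 for Fbln2, 0.871 for Itga2, 0.884 for Rgs16, 0.863 for Npr3, 0.906 for Prg4, 0.847 for Sod3, 0.919 for Mpeg1, 0.875 for Cmpk2, 0.910 for Cp, 0.889 for Cpm, 0.897 for Tgfb1, 0.932 for Tgfbr1 and 0.891 for Tgfbr2.

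The effect of the pulse differed between IFNγ and medium as the second stimulus, by the interaction test in edgeR, for 11 named genes. Here too, genes named only as members of a list were not counted. On the log2 scale the effect before IFNγ exceeded that before medium by 0.54 for Skil, 2.67 for Tnfrsf11b, the decoy receptor osteoprotegerin, 1.85 for Megf10, 1.74 for Tnnt2, 1.73 for Ntn1 and 1.54 for Fgf2. The difference was -0.80 for Cavin3, a caveolar coat protein, -0.76 for Lmo7, -0.57 for Abcb10, a mitochondrial transporter, -0.54 for Oaf and -0.54 for Itpk1, an inositol phosphate kinase.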

How the results depend on the processing

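The 4325 genes called after the pulse stood against 4297 with DESeq2 size factors, 3635 without a filter on low counts, 4381 with DESeq2, 3479 within 12 and 24 h and 2742 within 2 and 6 h, and leaving out libraries or durations gave 2690 to 4378. Without the replicate block (the duration factor) 2615 genes were called, and the 8 libraries alone gave 1394 with the replicate block and 689 without it. Same-duration libraries did not deviate together throughout, with correlations of 0.0416, 0.161, 0.0118 and 0.0712 at 2, 6, 12 and 24 h, and 3 of 4 libraries correlated best with their own duration, so the durations are not shown to pair the samples. The slope on duration called 1 gene, 190 without the filter, 182 with DESeq2, 0 to 714 when a library was left out, and as a step 582. Withdrawn against present TGFβ called 0 genes, 3 with DESeq2 size factors, 16 without the filter, 33 with DESeq2, 17 within 2 and 6 h, 110 within 12 and 24 h and 0 to 17 when libraries or durations were left out. Before IFNγ the count of 2365 became 1232 without the replicate block and 1034 to 2251 with libraries or durations left out. The interaction count of 59 became 114 without the filter, 225 with DESeq2, 16 without the replicate block and 8 to 201 with libraries or durations left out, 201 being without the 2 h medium library. The cause of these shifts was not tested. No gene named for the pulse reversed its direction under any alternative run, but of 146 such genes 47 lost their call in the fit of the 8 libraries with the replicate block, 74 in that fit without it and 25 in the fit of all libraries without it, the latter including Oas2, Ifit3, Cmpk2, Cxcl10, Cd274, Lgals9, Hbegf and Smad7.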
